A study of Mus musculus with 28 samples.

Results

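Livers of Fah-/- mice that received no NTBC were set against livers of Fah-/- mice kept on the full dose, as 4 arrays against 4 of the 28 arrays in the series, and every gene the arrays measured was considered. The arrays were chosen by their titles and dose labels alone: 0% NTBC in the livers without the drug and 100% in the livers on the full dose, given in drinking water at 7.5 mg/L. All 8 livers carried the same Fah-/- genotype, with no other allele labelled, so the untreated and the treated animals shared the gene defect and differed in the drug. A further 4 Fah-/- livers on a reduced dose, 25% by the sample labels but 2.5% for 3 months by the treatment description, are used where they show how the changes were graded. Age, sex, the time spent without the drug and whether each array came from a separate mouse are not given in the sources used here, so p-values measure the spread between these samples, which may be technical. Single-colour Agilent arrays of whole-liver RNA were used, so every cell type of the liver contributed to each value.

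Hepatocytes break tyrosine down through a chain of enzymes that ends with Fah, fumarylacetoacetate hydrolase. Without Fah, the reactive intermediates fumarylacetoacetate and maleylacetoacetate build up inside hepatocytes and damage them, which is the human disease hereditary tyrosinemia type 1. NTBC (nitisinone) blocks Hpd, an earlier enzyme of the chain, so the toxic intermediates are not formed, and mice without Fah stay healthy while they drink it. Stopping the drug is the standard way to start liver injury in this strain.

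A level below is the log2 of a probe's processed signal minus the log2 of the 75th percentile of its array, and a log2 difference is the mean level without NTBC minus the mean level on full NTBC, given with its standard error from limma. The 75th percentile itself was 471 to 578 on the arrays without NTBC, against 271 to 351 on the full NTBC arrays, and 63.5% to 66.6% of probes were well above background without NTBC, against 54.8% to 59.8% on full NTBC. Arrays of the same group correlated at 0.982 to 0.991 without NTBC and 0.989 to 0.99 on full NTBC, and arrays of different groups at 0.884 to 0.907. All 10 hepatocyte markers were well above background on all 8 arrays, and all 10 were called lower without NTBC, 8 of them with the deposited values, with a median log2 difference of -1.65 (-0.44 with the deposited values). Their mean level was 6.35 to 6.61 without NTBC, against 7.95 to 8.09 on full NTBC, and their part in the falls of hepatocyte pathways below was not tested. The Y-linked transcripts Ddx3y, Eif2s3y and Kdm5d were well above background on all 8 arrays and Xist on none, a check of these 4 genes added after their values were seen. Each dose was scanned in a run of its own, so dose and scan run cannot be told apart in any comparison below. The full NTBC arrays lay on 1 slide and the arrays without NTBC on 2.

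The enzymes that define the model were lower without NTBC. Fah had levels of -2.72, -1.97, -1.95 and -1.82 without NTBC, against -0.31, -0.32, -0.15 and -0.03 on full NTBC, and the groups did not overlap. Its log2 difference was -1.91 ± 0.21 (adjusted p = 2.4e-08). A Fah signal was measured in every liver although all of them were labelled Fah -/-, so this probe does not check the deletion. Hpd, the enzyme that NTBC inhibits, had levels of 4.08, 5.01, 5.27 and 4.88 without NTBC and 7.66, 7.69, 7.57 and 7.90 on full NTBC, which is 7.43-fold lower without the drug (adjusted p = 6.87e-11). Cdkn1a, the cell cycle inhibitor p21, stood at 4.30, 4.17, 4.41 and 4.25 without NTBC, against -1.12, -1.0, -1.65 and -1.85 on full NTBC, a rise of 51.4-fold (adjusted p = 5.16e-11). The brightest probe of Trp53, the gene of p53 itself, gave a log2 difference of -0.61 ± 0.14 (adjusted p = 0.000442), while another of its probes was called in the opposite direction, so no direction is given for Trp53.

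Of 20300 features tested, 14387 passed an adjusted p of 0.05, which is 70.9%, with 5951 higher (29.3%) and 8436 lower (41.6%) without NTBC. A change of at least 2-fold beside the adjusted p was found for 7786 features (38.4%), 3244 higher (16%) and 4542 lower (22.4%). Arrays of the groups did not overlap for 66.9% of all features, and 64.1% were both called and without overlap. A count of changed members in a gene group is therefore read against a background in which most features changed. The median log2 difference over all features was -0.17, and other scalings moved it to -0.40 (normexp background correction), 0.00 (the deposited values) and 0.01 (quantile normalisation). Higher calls made up 41.4% of all calls, but 30.9% after normexp, 27% without the filter, 50.2% with the deposited values and 50.3% with quantile normalisation. Calls that kept their direction with both normexp and the deposited values numbered 9322 (45.9%), 3179 higher (15.7%) and 6143 lower (30.3%). Among the named genes that were called, 59 of 206 had a log2 difference more than 1.5-fold closer to 0 with normexp and 100 with the deposited values, and probe choice is given where it moved a value by more than 1.5-fold. The median SD over the 4 arrays was 0.232 without NTBC and 0.158 on full NTBC.

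**Figure D1:**
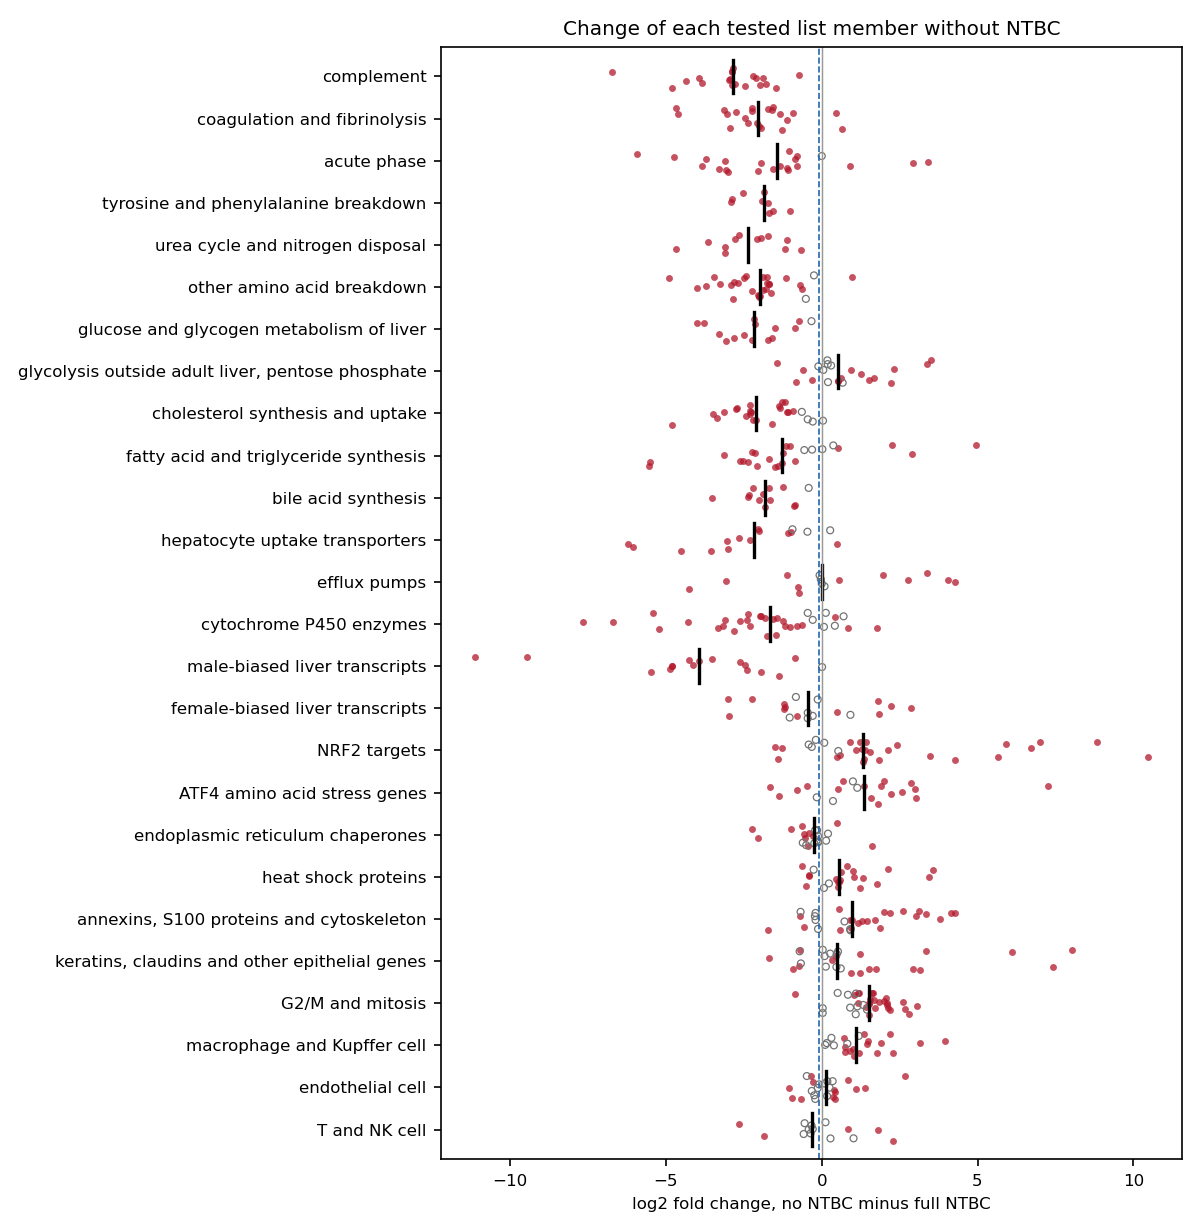
Log2 difference (no NTBC minus full NTBC, x axis) of every tested member of 26 gene groups (rows). Each point is a gene, filled red where adjusted p was under 0.05 and open otherwise, the black bar is the group's median, and the dashed blue line is the median of all tested genes with a symbol. Male-biased transcripts and complement components sit farthest to the left, with medians of -3.93 and -2.86, and G2/M and mitosis genes farthest to the right at 1.52 (0.23 with normexp).

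All 9 tested enzymes of tyrosine and phenylalanine breakdown were called lower without NTBC and all 9 by at least 2-fold. Their median log2 difference was -1.84 (-1.23 with the deposited values), beside -0.17 for all features. The brightest of 10 equal groups of features by mean level had a median of -0.54 (0.1 with the deposited values). Tat, tyrosine aminotransferase, which starts the pathway, had levels of 3.40, 3.72, 3.95 and 4.32 without NTBC, against 6.55, 6.90, 6.60 and 7.04 on full NTBC, and was 7.59-fold lower. Disposal of nitrogen moved in the same direction: 12 of 12 urea cycle and nitrogen genes were called lower, 11 of them by at least 2-fold, with a median of -2.38 (-1.80 with the deposited values). Otc, ornithine transcarbamylase, stood at 2.56, 2.99, 3.58 and 2.86 without NTBC and 5.96, 6.01, 6.18 and 6.29 on full NTBC (log2 difference -3.11 ± 0.32, and -1.83 as the mean of its probes). Ass1, argininosuccinate synthase, stood at 4.53, 4.99, 5.27 and 5.28 without NTBC and 8.24, 7.84, 8.09 and 8.36 on full NTBC (log2 difference -3.12 ± 0.30). The groups were far apart for both enzymes. Oat, ornithine aminotransferase, fell 25.6-fold and the liver glutaminase Gls2 fell 12.5-fold. Among 30 other enzymes of amino acid breakdown, 27 were called lower and 1 higher, with a median of -1.99 (-1.37 with the deposited values). Hal, histidine ammonia lyase, fell furthest, with levels of 1.03, 1.92, 1.87 and 2.67 without NTBC, against 6.83, 6.75, 6.64 and 6.83 on full NTBC (-4.89 ± 0.36, adjusted p = 4.1e-11). The exception was Gldc of the glycine cleavage system, with a log2 difference of 0.96 ± 0.14. In whole-liver RNA, fewer hepatocytes and less of a transcript per hepatocyte cannot be told apart. Within the livers without NTBC, replicate 1 had the lowest level for 9 of the 9 tyrosine enzymes, 10 of the 12 urea cycle genes and 27 of the 30 other enzymes, while over all features it was lowest for 29.1%.

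Plasma proteins made by hepatocytes were mostly lower without NTBC, and complement had the lowest median among these groups. All 20 tested complement genes were called lower without NTBC, 19 by at least 2-fold, with a median log2 difference of -2.86 (-2.62 with normexp and -2.07 with the deposited values). The largest falls within the list were in the membrane attack complex, the pore that complement assembles on its targets. C8b, a chain of its C8 component, had levels of -1.80, -2.19, -2.82 and -1.44 without NTBC, against 4.73, 4.66, 4.67 and 4.68 on full NTBC, a log2 difference of -6.74 ± 0.43 (adjusted p = 4.15e-12). C8a, C9, C6 and C8g belong to the same pore and fell 27.8-fold, 20.7-fold, 15.2-fold and 14.4-fold. Hc, which encodes C5, whose fragment starts the pore, fell 7.29-fold, Cfb of the alternative pathway 5.51-fold and C3 4.33-fold. Cfd, complement factor D, the protease that cleaves factor B, is counted here with the adipocyte markers and not in this list, and it was at least 167-fold lower without NTBC, where no array had it well above background (adjusted p = 2.24e-11).

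Coagulation and fibrinolysis genes were called lower in 20 of 22 cases and higher in 2, with a median of -2.04 (-1.22 with the deposited values). F7, which starts the extrinsic pathway, stood at -1.54, -1.19, -1.10 and -0.67 without NTBC and 3.57, 3.51, 3.50 and 3.58 on full NTBC, with no overlap and a log2 difference of -4.67 ± 0.17 (adjusted p = 1.84e-15). Prekallikrein, Klkb1, fell 24.4-fold and prothrombin, F2, fell 6.68-fold, while Serpinc1, antithrombin, and Fga, the fibrinogen alpha chain, fell 3.31-fold and 3-fold. The exceptions were F8, at a log2 difference of 0.64 ± 0.27 (0.38 and not called with normexp), and Cpb2, at 0.45 ± 0.19, and neither call held without no NTBC replicate 2 or 3 or without full NTBC replicate 1 or 4, when 0 of the 22 were called higher. Of 27 other secreted plasma proteins, 25 were called lower and 1 higher. Hgfac, the protease that activates hepatocyte growth factor, fell 27-fold and Afm, afamin, fell 11.7-fold, against 2.81-fold for Ttr, transthyretin, and 2.63-fold for Trf, transferrin, whose call was lost with quantile normalisation (-0.25). Serpina7, thyroxine-binding globulin, was the gene called higher, at 1.79 ± 0.32.

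Acute phase genes, which the liver turns up in inflammation, did not rise together: 18 of 22 were called lower, 3 higher, and the median was -1.44 (-0.85 with the deposited values). Saa2, a serum amyloid A, had levels of -1.24, -0.46, -0.60 and -0.33 without NTBC, against 5.48, 5.53, 4.87 and 5.21 on full NTBC, so that it was 61-fold lower. Orm3, an orosomucoid, fell 26.7-fold, and Itih4 fell 13.3-fold. Lcn2, lipocalin 2, went the other way, at 0.69, 1.02, 1.0 and 1.21 without NTBC and -1.97, -2.74, -2.90 and -2.13 on full NTBC (3.41 ± 0.52, adjusted p = 4.01e-06), as did Il1rn, the interleukin 1 receptor antagonist (2.92 ± 0.36, and 1.97 as the mean of its probes). Saa and Orm genes are close copies of each other, so signal may be shared between members of each family. Pigr, which carries immunoglobulin A into bile, had levels of -2.36, -0.85, -0.32 and -0.96 without NTBC, against 5.17, 5.30, 5.18 and 5.40 on full NTBC, a fall of 83.6-fold.

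**Figure D2:**
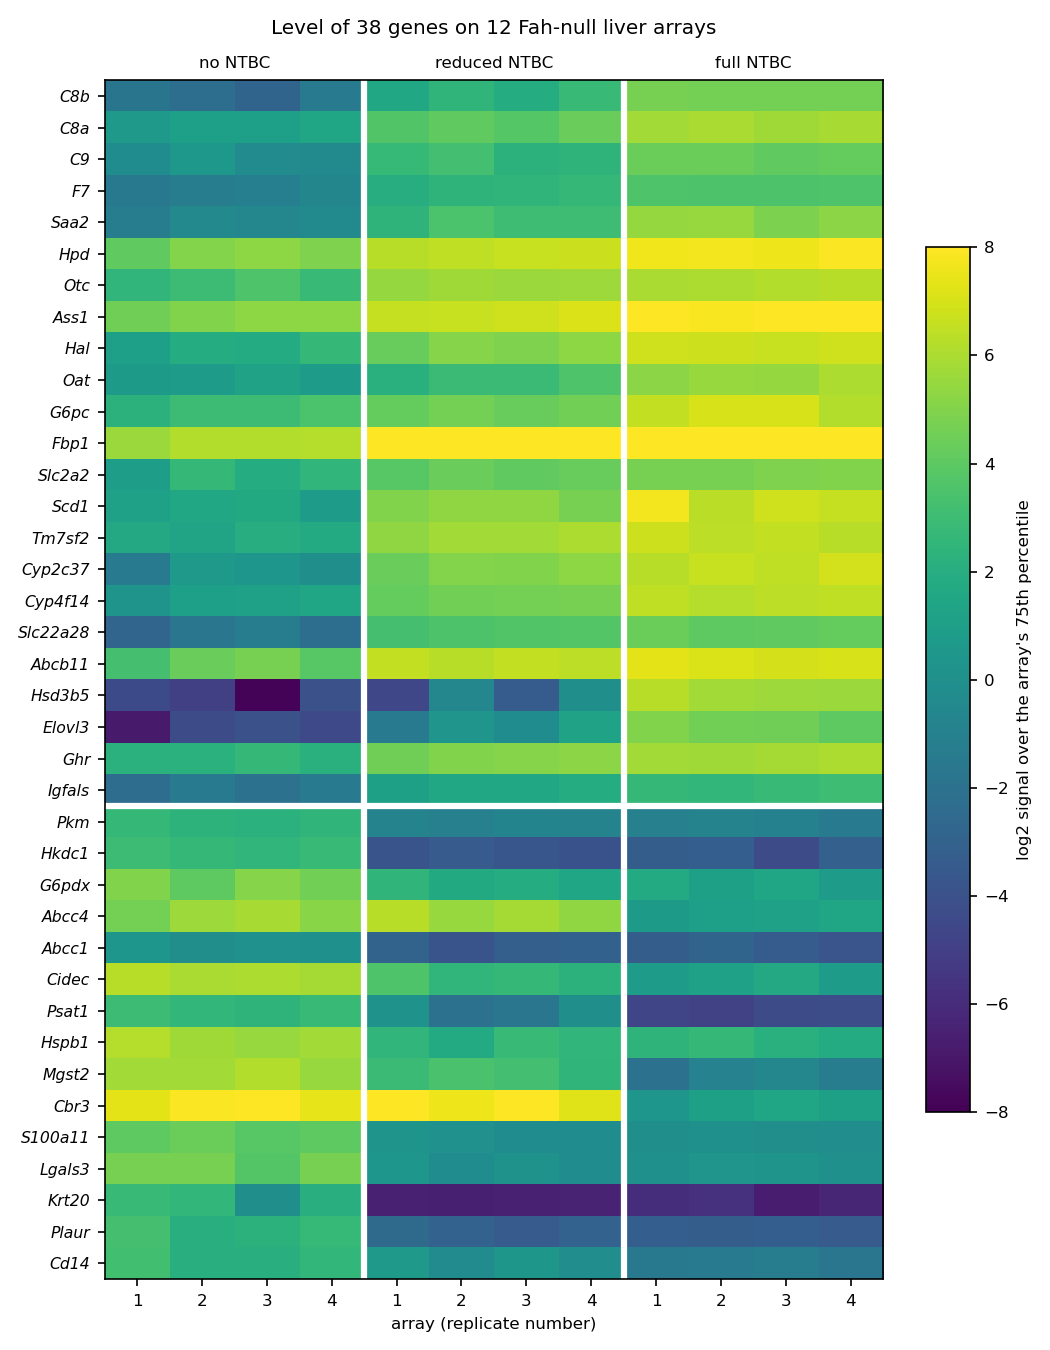
Heat map of levels (log2 of signal over the 75th percentile of the array, colour scale) for 38 genes (rows) on 12 arrays (columns): 4 without NTBC, 4 on the reduced dose and 4 on full NTBC, with levels above 8 shown in the top colour. The upper 23 genes, from C8b to Igfals, were lower without NTBC than on full NTBC and the lower 15, from Pkm to Cd14, were higher.

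Genes of glucose handling in the adult liver fell, while several isozymes that other tissues use rose. Of 15 glucose and glycogen genes, 14 were called lower and 12 by at least 2-fold, with a median of -2.19. G6pc, the catalytic subunit that releases free glucose, fell 13.8-fold, the transporter Slc2a2, which carries glucose across the hepatocyte membrane, fell 7.02-fold, and Fbp1 of gluconeogenesis fell 8.47-fold. Hexokinases of other tissues are little used by adult hepatocytes. Hk2 had levels of -0.81, -0.68, -1.75 and -1.04 without NTBC, against -3.48, -3.50, -2.83 and -3.77 on full NTBC (2.33 ± 0.39), and Hkdc1 had 2.97, 2.63, 2.52 and 2.84 without NTBC, against -3.29, -3.23, -4.36 and -3.07 on full NTBC (6.23 ± 0.61, adjusted p = 4.62e-09). Both rose with no overlap between the groups, whereas the levels of Hk3, named after its values were seen, overlapped (1.27 ± 0.39, adjusted p = 0.00645).

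Pyruvate kinase isozymes changed in opposite directions. Pklr, the liver form, stood at -2.0, -1.76, -2.22 and -1.58 without NTBC, against 0.51, -0.14, 0.83 and 0.00 on full NTBC, and fell 4.57-fold. Pkm, the form of muscle, fetal and proliferating cells, stood at 2.67, 2.32, 2.24 and 2.44 without NTBC and -1.06, -0.87, -0.98 and -1.38 on full NTBC, and rose 11.2-fold (adjusted p = 3.57e-13). Over the 22 genes of such isozymes and of the pentose phosphate pathway, 11 were called higher and 4 lower, with a median of 0.52 (1.01 with the deposited values), where 29.3% of all features were called higher. G6pdx and Pgd, which make NADPH in the oxidative branch of the pentose phosphate pathway, rose with log2 differences of 3.39 ± 0.32 and 2.22 ± 0.19. Aldoc, an aldolase, was among the 4 called lower, at -1.44 ± 0.31. Ldha depended on the scaling, with a log2 difference of -0.83 with the 75th percentile scaling, 0.05 with quantile normalisation and 0.02 with the deposited values.

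**Figure D3:**
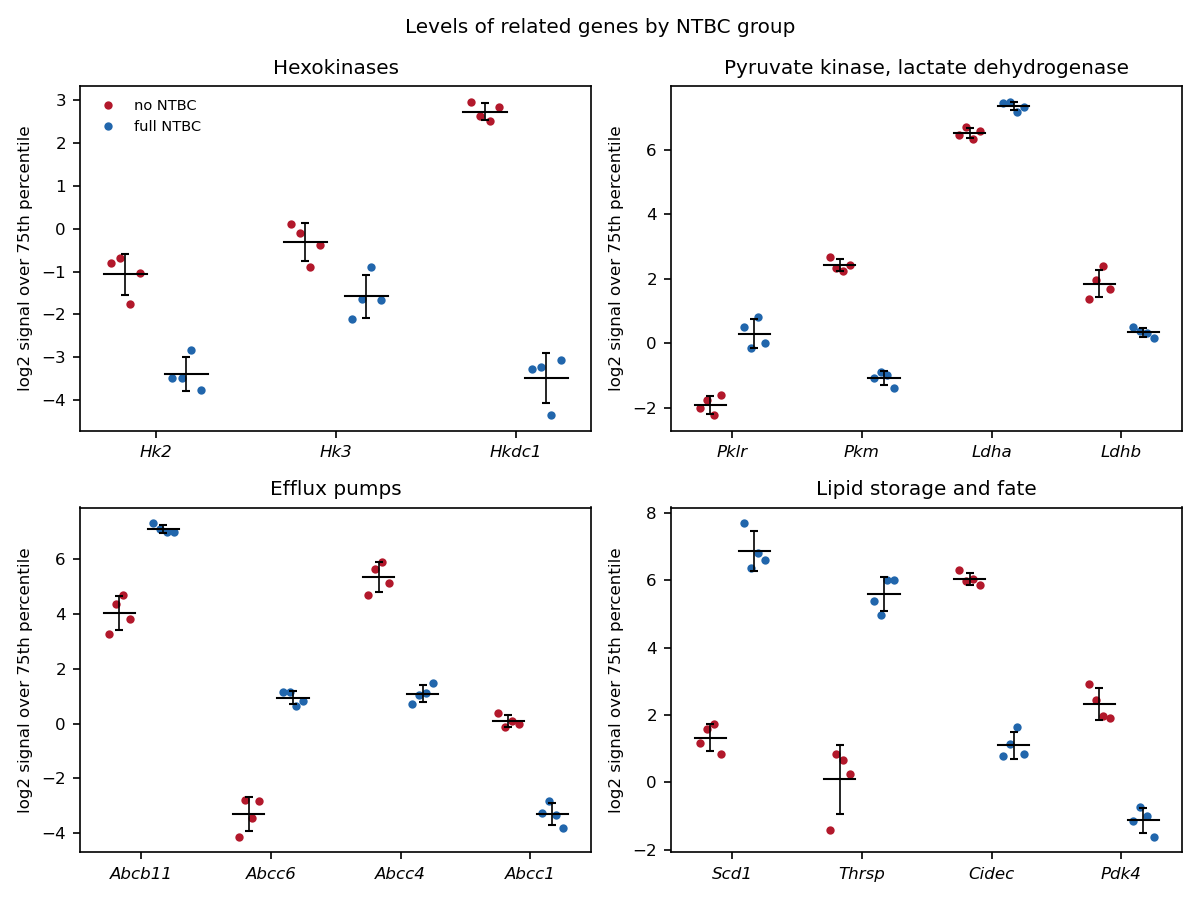
Levels (log2 of signal over the 75th percentile of the array, y axis) of related genes, several of which moved in opposite directions, no NTBC left of full NTBC in each pair. Points are arrays and bars are mean ± SD of 4 arrays, in panels for hexokinases, pyruvate kinase and lactate dehydrogenase, efflux pumps, and lipid genes. Hk2 and Hkdc1 lie higher without NTBC, Pklr lies lower where Pkm lies higher, Abcb11 and Abcc6 lie lower where Abcc4 and Abcc1 lie higher, and Scd1 and Thrsp lie lower where Cidec and Pdk4 lie higher, while Ldha has no settled direction across scalings.

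Bile acid synthesis genes were called lower in 12 of 13 cases, with a median of -1.83. Cyp7b1, of the alternative route, fell 11.6-fold, and Cyp27a1 and Cyp8b1, which hydroxylate the side chain and set the ratio of bile acid species, fell 4.05-fold and 3.73-fold. The gene not called was Cyp7a1, the rate-limiting enzyme of the classic route: its levels were 0.51, 2.63, 1.26 and 2.71 without NTBC and 1.80, 2.25, 2.54 and 2.20 on full NTBC, which overlap, and the log2 difference was -0.42 ± 0.54 (adjusted p = 0.499). Transporters that take organic ions into hepatocytes were called lower in 12 of 16 cases and higher in 1, which was not called without no NTBC replicate 3 or full NTBC replicate 1 or 3. Slc10a1, which takes up bile acids, fell 4.88-fold, and Slco1b2 fell 11.6-fold. Slc22a28 and Slc22a30, members of the organic anion transporter family, fell 74.2-fold and 67-fold.

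Pumps that export compounds split in direction, with 6 of 15 called higher, 5 called lower and a median of 0.00 (0.61 with the deposited values). Abcb11, which pumps bile salts into bile, had levels of 3.26, 4.37, 4.69 and 3.83 without NTBC, against 7.32, 7.11, 6.98 and 7.01 on full NTBC, and fell 8.38-fold, and Abcc6 fell 19-fold. Abcc4, which exports bile salts and conjugates back towards blood, had levels of 4.68, 5.66, 5.91 and 5.14 without NTBC, against 0.72, 1.05, 1.13 and 1.47 on full NTBC, and rose 19.1-fold (adjusted p = 5.03e-12). Abcc5 rose 16.7-fold, and Abcc2, the conjugate pump of the canalicular membrane, 3.92-fold. Abcc1 rose with a log2 difference of 3.39 ± 0.35 (2.35 as the mean of its probes, and 1.72 by a probe well above background on all 28 arrays). Abcb1a, a multidrug pump, was not well above background on any full NTBC array and was at least 5.21-fold higher without NTBC (adjusted p = 9.97e-11). The call of Abcb1a was lost with normexp (0.53). Abcb4, which exports phospholipid into bile and was picked after its values were seen, had levels of 5.91, 6.19, 6.58 and 5.80 without NTBC and 6.13, 6.32, 5.94 and 6.11 on full NTBC, which overlap, and was not called, although its log2 difference was 0.76 and called with the deposited values.

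Of 34 cytochrome P450 genes, 25 were called lower and 3 higher, with a median of -1.66, but -0.83 with the deposited values and -0.73 with quantile normalisation, and 18 of the 25 lower calls were kept with both normexp and the deposited values. Cyp2c54 and Cyp2c37 fell furthest, 202-fold and 103-fold, although the Cyp2c genes are close copies and may share signal. Cyp2e1, an ethanol-oxidising enzyme of pericentral hepatocytes, fell 9.02-fold and Cyp4f14 fell 42.8-fold. Cyp39a1, an oxysterol hydroxylase, was the largest of the 3 rises (1.77 ± 0.24). Conjugating enzymes and esterases were called lower in 21 of 29 cases and higher in 5 (3 without no NTBC replicate 3), with Ces3b and Sult5a1 down 122-fold and 67.4-fold and Ugt2b34 up 3.12-fold.

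The furthest fall of all tested genes with a symbol was among transcripts that are higher in male than in female mouse liver, a pattern set by the pulses of growth hormone. Of 17 tested, 16 were called lower, 15 by at least 2-fold, and the median log2 difference was -3.93 (-3.32 with normexp). Hsd3b5, a steroid dehydrogenase, had levels of -4.43, -4.95, -7.87 and -4.03 without NTBC, against 6.27, 5.76, 5.63 and 5.62 on full NTBC (-11.14 ± 0.78, adjusted p = 1.75e-11). Elovl3, a fatty acid elongase, had -6.82, -4.33, -4.04 and -4.48 without NTBC and 4.98, 4.61, 4.54 and 4.03 on full NTBC (-9.46 ± 0.89). The groups lay far apart for both genes, and both spread more without NTBC, where each was well above background on 3 of 4 arrays. The log2 difference of Hsd3b5 was -10.29 without no NTBC replicate 3, and that of Elovl3 -8.82 without no NTBC replicate 1. The oxidase Nox4 fell 29.1-fold and the major urinary protein Mup3 fell 44.5-fold, with the reservation that Hsd3b and Mup genes exist in near-identical copies. Transcripts higher in females did not mirror this, with 5 of 19 called higher and 7 lower (1 and 7 with normexp, 3 and 3 with the deposited values). Cyp2b9, an enzyme of female liver, was not called, at -0.45 ± 1.06. Of 16 genes of the growth hormone and Igf1 axis, 8 were called lower and 4 higher, and 7 and 2 kept their call with both normexp and the deposited values. The counts of this list and of the female list stand beside all features, 41.6% of which were called lower and 29.3% higher. Ghr, the receptor, stood at 2.19, 2.21, 2.67 and 2.14 without NTBC, against 5.79, 5.71, 5.86 and 6.01 on full NTBC, and fell 11.6-fold. Igf1, the growth factor that the receptor induces, fell 4.91-fold and Igfals, which holds Igf1 in circulation, fell 23.2-fold. Igfbp1, an Igf1-binding protein, rose 3.27-fold.

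Cholesterol synthesis and uptake genes were called lower in 21 of 25 cases, 20 by at least 2-fold, and higher in none, with a median of -2.10 (-1.38 with quantile normalisation). Tm7sf2, a sterol reductase, fell 28-fold and the regulator Insig1 fell 8.88-fold. Sqle, an enzyme of the pathway, and Srebf2, its transcription factor, were not called, at -0.45 ± 0.39 and 0.04 ± 0.15.

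Fatty acid and triglyceride genes were called lower in 17 of 25 cases and higher in 4. Scd1, the desaturase of lipogenic liver, had levels of 1.17, 1.59, 1.72 and 0.84 without NTBC, against 7.69, 6.35, 6.82 and 6.61 on full NTBC, and fell 46.4-fold, and Thrsp, a lipogenic regulator, fell 45.2-fold. Fasn, fatty acid synthase, fell 6.21-fold (-2.64 ± 0.30, and -3.51 as the mean of its probes). Cidec, which enlarges lipid droplets, had levels of 6.30, 5.97, 6.03 and 5.87 without NTBC, against 0.77, 1.14, 1.63 and 0.85 on full NTBC, and rose 30.8-fold (adjusted p = 1.23e-13). Its relative Cidea, named here as a marker of adipocytes, had a log2 difference of 5.16 ± 0.56, and Mogat1, an acyltransferase, rose 4.77-fold. Fatty acid oxidation was mixed as well, with 17 of 27 lower and 7 higher. Of these, 11 and 6 kept their call with both normexp and the deposited values. The median of this list was -0.78, but -0.06 with the deposited values and -0.08 with quantile normalisation, so its size depended on the scaling. Among the rises, Pdk4, which blocks pyruvate oxidation, and the hormone Fgf21 rose 10.8-fold and 8.8-fold. Acot2, a mitochondrial thioesterase, rose 8.58-fold. Apolipoproteins were mostly lower, at 15 of 20, with Apob down 6.33-fold (-2.66 ± 0.16, and -1.96 as the mean of its probes), but Apoa4 rose 7.45-fold and Mttp, which loads lipid onto Apob, rose 2.71-fold.

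Of 26 liver transcription factors, 17 were called lower and 4 higher, with a median of -0.88. Nr1i3, the xenobiotic receptor CAR, fell 4.52-fold, Onecut1 3.88-fold and Cebpa 2.44-fold, whereas Hnf4a, a central regulator of hepatocyte genes, had a smaller difference of -0.78 ± 0.12 (-0.51 and not called with normexp) and Foxa2 was not called (-0.28 ± 0.17). Sox9, a factor of bile duct and progenitor cells, rose 2.95-fold. Genes of pericentral hepatocytes that depend on Wnt signals were called lower in 11 of 18 cases and higher in 1 (2 without full NTBC replicate 3). Rgn, regucalcin, and the glutamate transporter Slc1a2 fell 27.1-fold and 25.4-fold, and Glul, glutamine synthetase, fell 6.89-fold (-2.79 ± 0.32, and -2.19 as the mean of its probes). Axin2 and Tbx3, other Wnt targets, were not called, at 0.66 ± 0.36 and -0.29 ± 0.31. Periportal genes split, with 8 of 14 lower and 5 higher, and Cdh1, E-cadherin, was among the 5 (1.49 ± 0.30). The clock output genes Dbp and Nr1d1 fell 6.78-fold and 4.36-fold, and 9 of 19 clock genes were called lower and 2 higher, or 1 higher when any no NTBC array or full NTBC replicate 3 was left out. The counts of this paragraph stand beside 41.6% of all features called lower and 29.3% called higher.

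Heme and iron genes were called in both directions. Alas2, the erythroid form of the first enzyme of heme synthesis, had levels of -0.68, 0.12, 0.53 and -0.45 without NTBC, against 5.10, 4.79, 5.04 and 4.86 on full NTBC, and fell 33.4-fold. Alas2 is itself 1 of the 6 erythroid markers, of 7 tested, that were called lower, and the part of erythroid cells in its fall was not tested. Hmox1, which breaks heme down, rose with a log2 difference of 3.42 ± 0.28. Of 12 heme genes, 8 were called lower and 1 higher, and of 15 iron genes, 7 lower and 4 higher. Over all features, 41.6% were called lower and 29.3% higher. Hamp2, a paralog of the iron hormone hepcidin, had levels of -1.97, -1.80, -1.73 and -1.64 without NTBC, against 3.25, 4.28, 4.97 and 5.0 on full NTBC (-6.16 ± 0.60), while hepcidin itself, Hamp, differed by -0.78 ± 0.27, and by 0.24 with the deposited values, so no direction is given for it. Tfr2, an iron sensor of hepatocytes, fell 9.32-fold and Tfrc, the receptor that imports transferrin, rose 4.46-fold. The iron list as a whole has no settled direction, since its median was -0.35 with the 75th percentile scaling and 0.24 with the deposited values. The metal-binding proteins Mt2 and Mt1 rose 14.8-fold and 4.96-fold, with a log2 difference of 1.39 for Mt1 as the mean of its probes. Respiratory chain subunits were called lower in 44 of 48 cases, 10 by at least 2-fold, but their median moved with scaling from -0.71 to 0.17 with the deposited values, so no direction is given for them.

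Stress genes did not move as a block. To show the letters that the factors of these programmes are known to bind, a stretch of 80 bases upstream that holds the element, beginning 80 to 229 bases before the transcription start, is given for 5 genes of the stress and cell division programmes, read from RefSeq on GRCm38.p6, on the gene's own strand, with the matched element in capitals. The ATF4 element searched was TGATGNAA, the NRF2 element TGANNNNGC, the cell cycle element TTTGAA or TTCGAA, and the endoplasmic reticulum stress element is given by its name, each on both strands. A match is a description of the letters. The form TGANNNNGC, the one marked for Srxn1, was found in 41.3% of all promoters.
Slc7a11, cystine transporter, ATF4 element, chr3:50443617-50443696, minus strand: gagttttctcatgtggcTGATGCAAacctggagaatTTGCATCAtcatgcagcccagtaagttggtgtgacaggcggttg
Chac1, glutathione-degrading enzyme, ATF4 element, chr2:119351013-119351092, plus strand: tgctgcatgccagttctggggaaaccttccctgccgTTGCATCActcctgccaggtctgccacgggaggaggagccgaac
Srxn1, sulfiredoxin, NRF2 element, chr2:152105443-152105522, plus strand: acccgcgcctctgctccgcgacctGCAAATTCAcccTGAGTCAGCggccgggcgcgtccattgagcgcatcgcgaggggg
Hspa5, chaperone BiP, endoplasmic reticulum stress element, chr2:34771994-34772073, plus strand: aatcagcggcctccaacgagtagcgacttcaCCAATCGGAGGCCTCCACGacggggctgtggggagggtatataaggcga
Cdk1, mitotic kinase, cell cycle element, chr10:69352913-69352992, minus strand: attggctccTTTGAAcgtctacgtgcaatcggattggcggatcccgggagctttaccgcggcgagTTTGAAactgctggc
The same ATF4 element stands in front of Slc7a11 and of Chac1. Slc7a11 was not well above background on any full NTBC array and was at least 377-fold higher without NTBC (adjusted p = 3.26e-14). Its fitted log2 difference was 10.48, with 9.37 as the mean of its probes and 6.30 with normexp, whereas Chac1 had a log2 difference of -1.65 ± 0.57.

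NRF2 drives genes that dispose of electrophiles and oxidants. Of 30 tested NRF2 targets, 22 were called higher and 3 lower, with a median of 1.34, beside 29.3% of all features called higher. Cbr3, a carbonyl reductase, had levels of 7.34, 7.92, 8.18 and 7.42 without NTBC, against 0.43, 1.09, 1.41 and 1.07 on full NTBC (6.72 ± 0.32, adjusted p = 4.3e-14). Mgst2, Gpx2 and Ptgr1, enzymes that use or spare glutathione or reduce electrophiles, rose 127-fold, 59.8-fold and 49.9-fold. Gclc, which limits glutathione synthesis, rose 2.65-fold, and Srxn1, shown above, had a log2 difference of 3.47 ± 0.30. Gstp1 was among the 3 called lower, at -1.51, but its call was lost with quantile normalisation (-0.04) and with the deposited values. The stricter NRF2 element TGACNNNGC was found in 38.9% of 36 promoters of the list and in 12.4% of all promoters, the windows running from 250 bases before the start to 50 after it. Among list genes, 9 of 10 with the element and 11 of 17 without it were called higher.

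ATF4 genes, which answer amino acid shortage, were called higher in 13 of 21 cases and lower in 4, and 9 and 2 kept their call with both normexp and the deposited values. Their median was 1.37, and 0.66 with normexp. Psat1, of serine synthesis, was not well above background on any full NTBC array and was at least 125-fold higher without NTBC, at levels of 2.99, 2.61, 2.42 and 2.87 without NTBC, against -4.66, -4.87, -4.37 and -4.19 on full NTBC. Psph, the last enzyme of serine synthesis, rose 8.02-fold, and the transcription factors Atf3 and Ddit3 rose 8.04-fold and 3.47-fold. The direction was not shared by the whole programme. Chac1 had levels of -1.15, -0.24, 0.06 and 0.34 without NTBC, against 2.33, 0.94, 1.26 and 1.09 on full NTBC, and fell (-1.65 ± 0.57, adjusted p = 0.0124), Trib3 fell (-0.79 ± 0.27) and Asns, asparagine synthetase, was not called (1.14 ± 0.66). The calls of Chac1 and Trib3 were lost without no NTBC replicate 1, which left 2 of the list called lower, and that of Chac1 also without full NTBC replicate 1. The call of Trib3 was lost with normexp (-0.58), quantile normalisation (-0.51) and the deposited values (-0.50) too. The ATF4 element was found in 26.9% of 26 promoters of the list and 3.97% of all promoters, and 2 of 6 list genes with it and 9 of 13 without it were called higher.

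Chaperones of the endoplasmic reticulum did not rise as a group, with 2 of 22 called higher and 9 lower, and their median changed sign with the scaling (-0.26 with the 75th percentile scaling, 0.05 with the deposited values). Hspa5 was not called, at 0.20 ± 0.14, Herpud1 fell 4.17-fold and Dnajb9 rose 3.06-fold. Heat shock proteins and their partners, a list that also holds mitochondrial chaperones, were called higher in 15 of 22 cases and lower in 4 (16 and 1 with normexp). Hspb1 rose 11.8-fold, Hsp90aa1 rose 3.44-fold, and Hspa1a, which has a near-identical copy, rose 10.8-fold.

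Growth-related genes divided in the same way. Of 12 imprinted growth genes, 9 were called higher and 1 lower. Igf2, a fetal growth factor, had levels of 6.22, 5.66, 5.38 and 6.44 without NTBC, against -3.67, -3.53, -4.62 and -3.78 on full NTBC, where 3 of 4 arrays had it well above background, and the log2 difference was 9.83 ± 0.80 (adjusted p = 2.18e-10). H19, the noncoding RNA of the same imprinted locus, had levels of 3.55, 4.81, 3.33 and 5.16 without NTBC, against -3.38, -3.55, -3.24 and -3.68 on full NTBC (7.68 ± 0.68). The groups lay far apart for both. Peg3 and Grb10, an adaptor that restrains insulin signalling, rose 12.9-fold and 8.73-fold (3.13 ± 0.40, and 2.31 as the mean of its probes), with Peg3 well above background on 3 of 4 full NTBC arrays. Dlk1, a surface protein of fetal hepatoblasts, was at least 5.01-fold higher, being not well above background on any full NTBC array, although its call was lost with normexp (0.57). Among immediate early genes, 14 of 26 were called higher and 6 lower. Fosl1 was at least 9.37-fold higher without NTBC and Myc rose 4.06-fold, whereas Junb fell 2.99-fold and Fos, Jun and Egr1 were not called, at 0.88 ± 0.63, 0.45 ± 0.34 and 0.10 ± 0.60. Among growth factor signals and plasminogen activators, 11 of 22 were called higher and 7 lower (6 and 6 with normexp). Plaur, the urokinase receptor, had levels of 3.25, 2.03, 2.27 and 2.70 without NTBC, against -3.22, -3.30, -3.25 and -3.41 on full NTBC, and rose 57.9-fold (5.86 ± 0.32, adjusted p = 3.19e-13), with 4.75 as the mean of its probes. Plat, tissue plasminogen activator, rose 29.2-fold (4.87 ± 0.37, and 5.53 as the mean of its probes), and Tnfrsf12a, the receptor of TWEAK, rose 18.4-fold. The receptors Egfr and Fgfr4 fell 4.97-fold and 4.22-fold.

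Many cell division genes were called higher without NTBC, and how many depended on which arrays entered. G2/M and mitosis genes were called higher in 24 of 35 cases and lower in 1, with a median of 1.52, but 0.23 with normexp and 0.67 with the deposited values, and 4 of the 24 kept their call in both. Their mean level was -0.95, -1.74, -2.70 and -1.77 without NTBC, against -3.54, -3.42, -2.95 and -3.17 on full NTBC. Replicate 1 was the highest of the arrays without NTBC, and replicate 3 was lowest for 33 of the 35 genes, while over all features it was lowest for 29.4%. Without replicate 1 the count was 9 in place of 24. Cdk1 stood at -0.70, -1.66, -2.92 and -1.44 without NTBC, against -6.02, -4.10, -3.58 and -3.46 on full NTBC (2.61 ± 0.74, adjusted p = 0.00325), but it was well above background on 2 of 4 full NTBC arrays, and normexp gave a difference of 0.71 that was not called. The cell cycle element was found in 78.1% of 32 promoters of the list and 19.2% of all promoters, and 15 of 21 list genes with it and 5 of 7 without it were called higher. Replication genes were called higher in 14 of 32 cases and lower in 5 (9 and 5 with normexp), with Mcm2 of the replication helicase up 4.07-fold, Pcna up 2.52-fold, and Tk1, thymidine kinase, down 3.75-fold. The cyclin-dependent kinase inhibitor Cdkn2b rose 12.7-fold and Ccne1, cyclin E1, rose 3.19-fold.

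Of 36 p53 targets, Cdkn1a among them, 24 were called higher and 2 lower, with a median of 1.06, and genes of cell death split in direction. Psrc1, a microtubule protein, had levels of 2.78, 3.22, 3.39 and 2.53 without NTBC, against -4.31, -3.75, -4.45 and -4.44 on full NTBC (7.22 ± 0.57, and 6.28 as the mean of its probes), and Phlda3, a repressor of Akt signalling, had 4.61, 4.88, 4.93 and 4.60 without NTBC, against -0.20, -0.08, -0.56 and -0.31 on full NTBC (5.04 ± 0.27). The groups did not overlap for either gene, and Psrc1 was well above background on 2 of 4 full NTBC arrays. Eda2r, a receptor of the tumour necrosis factor family, was at least 23.8-fold higher (4.45 on the log2 scale as the mean of its probes), whereas Sesn1 fell (-0.79 ± 0.10). Of 23 genes of the BCL2 family and cell death, 10 were called higher and 7 lower. Bcl2l11, which encodes the death-promoting protein Bim, rose 5.78-fold (2.53 ± 0.23, and 3.62 as the mean of its probes) and the survival gene Bcl2l1 rose 1.89-fold. Ripk3 and Mlkl, which carry out necroptosis, rose 3.03-fold and 2.4-fold.

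Chemokines were called higher in 11 of 22 cases and lower in 5, and 8 and 5 with normexp. The counts of this paragraph stand beside all features, of which 29.3% were called higher and 41.6% lower. Ccl2, which draws monocytes, had levels of 1.11, 0.87, -0.42 and 1.54 without NTBC, against -2.33, -2.21, -1.54 and -2.30 on full NTBC (2.87 ± 0.69, adjusted p = 0.000743). Ccl6 and Cxcl14 rose 7.78-fold and 8-fold, and Cxcl12, which keeps leukocytes and stem cells in place, fell 3.49-fold. Interferon response genes were called higher in 3 of 24 cases (1 without no NTBC replicate 4) and lower in 6. Ribosome biogenesis genes were called higher in 11 of 23 cases and lower in none, and the nucleolar proteins Gnl3 and Nop58 rose 2.4-fold and 2.26-fold. Among 35 DNA repair and checkpoint genes, 11 were called higher and 11 lower (4 and 9 with normexp), the higher count being close to the share of all features. Brca1 was up 5.43-fold and the checkpoint kinase Atm down 2.51-fold. Lysosome and autophagy genes were called higher in 11 and lower in 11 of 29 cases, but in 17 and 3 with the deposited values, and proteasome subunits in 6 and 9 of 34. The medians of these lists changed sign with the scaling, at -0.01 and -0.01 with the 75th percentile scaling, against 0.48 and 0.52 with the deposited values, so no direction is given for either. Metallothionein and zinc genes were called higher in 6 and lower in 3 of 12 cases. Oncofetal and progenitor markers were called higher in 16 of 21 cases and lower in 2, and G1 cyclins and their inhibitors in 9 of 18 and 5 (5 and 4 with normexp). Platelet markers were called higher in 2 of 8 cases and lower in 1, mesothelial markers in 2 and 2 of 6, muscle markers in 0 and 2 of 5, and adipocyte markers in 2 and 2 of 4. Of these small lists, mesothelial markers were called higher in 1 case without no NTBC replicate 1, 2 or 4 or full NTBC replicate 3 or 4, muscle markers in 1 without no NTBC replicate 2 or 3 or full NTBC replicate 4, and adipocyte markers lower in 1 without full NTBC replicate 2.

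Genes of other epithelia and of the cytoskeleton were more often called higher than lower. Of 27 keratins, claudins and related genes, 13 were called higher and 4 lower. Krt20, a keratin of gut epithelium, was not well above background on any full NTBC array, with levels of 2.78, 2.60, -0.06 and 2.07 without NTBC and -5.92, -5.74, -6.70 and -6.31 on full NTBC, and was at least 75.3-fold higher without the drug. Its fitted log2 difference, which is against signal at background, was 8.02, and 8.66 without no NTBC replicate 3. Cldn4, a claudin of bile duct and other epithelia, was at least 16.8-fold higher. The keratins of hepatocytes changed less, at 0.95 ± 0.17 for Krt8 and 0.34 ± 0.15 for Krt18, whose call was lost when no NTBC replicate 1, 2 or 4 or full NTBC replicate 3 or 4 was left out, and the claudin Cldn3 fell 3.23-fold. Annexins, S100 proteins and cytoskeletal genes were called higher in 19 of 30 cases and lower in 3. S100a11 had levels of 4.05, 4.42, 3.85 and 4.01 without NTBC, against -0.05, 0.06, -0.08 and -0.18 on full NTBC (4.15 ± 0.25). Anxa2 rose 8.12-fold, S100a6 10.1-fold, the tubulins Tubb6 and Tuba8 8.74-fold and 13.8-fold, and the galectin Lgals3 19.6-fold.

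Counts for markers of other liver cells are read beside all features, of which 29.3% were called higher and 41.6% lower. The part of these cells in the results above was not tested. Macrophage and Kupffer cell markers were called higher in 16 of 22 cases and lower in none, with a mean level of 0.91 to 2.19 without NTBC, against 0.03 to 0.51 on full NTBC. Cd14, the endotoxin co-receptor, stood at 3.18, 2.02, 2.0 and 2.62 without NTBC, against -1.54, -1.47, -1.26 and -1.75 on full NTBC, and rose 15.6-fold. Trem2 rose 8.9-fold and Cd68 rose 3.69-fold, and the Kupffer cell markers Clec4f and Timd4 had smaller differences of 0.75 ± 0.24 and 0.91 ± 0.30, with the call of Timd4 lost without no NTBC replicate 1. Only 6 of the 22 were called with the second slide alone, which holds replicates 3 and 4. Cholangiocyte markers, 10 of 14 of which passed the filter, were called higher in 6 cases and lower in 1 (2 without full NTBC replicate 3), and higher in 3 cases with the second slide alone. Their mean level was -0.87 to -0.05 without NTBC, against -2.18 to -1.22 on full NTBC. Krt19 overlapped between the groups (1.22 ± 0.51), with its call lost when no NTBC replicate 1, 2 or 4 or full NTBC replicate 3 or 4 was left out, Krt7 was not called (-0.71 ± 0.42), Bicc1 rose 5.92-fold, and Cftr, Muc1, Sctr and Slc5a1 were not well above background on all 4 arrays of any group.

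Stellate cell markers were called higher in 6 of 21 cases, close to the 29.3% of all features called higher, and without replicate 3 the count was 10. Their mean level was 0.81 to 1.80 without NTBC, against 0.92 to 1.06 on full NTBC. Col1a1, collagen I, had a log2 difference of 1.20 ± 0.68 (adjusted p = 0.118), and 1.90 without no NTBC replicate 3. For Acta2, the actin of activated stellate cells, the brightest probe gave 0.90 ± 0.14 and the mean of its probes -0.46, so no direction is given. Collagens and matrix genes were called higher in 13 of 27 cases and lower in 2, in 8 cases higher without replicate 1, and replicate 3 was lowest for 23 of the 27. Mmp12, a macrophage elastase, was at least 5.93-fold higher, with its call lost with normexp (0.93), while the probes of the protease inhibitor Timp1 disagreed in direction (-0.93 ± 0.29 for the brightest and 0.86 for their mean). Endothelial markers were called higher in 8 of 24 cases and lower in 5 (3 and 2 with normexp), and in 5 cases higher without replicate 1. Lyve1 of sinusoidal endothelium had a log2 difference of 2.66 ± 0.52 and Kdr, a vascular growth factor receptor, of -0.94 ± 0.15. T and NK cell markers were higher in 3 and lower in 2 of 14, of which 0 and 2 kept their call with both normexp and the deposited values. Cd4 was at least 4.99-fold lower without NTBC. B cell markers were lower in 2 of 10 and higher in none, or lower in 1 without no NTBC replicate 1, 3 or 4 or full NTBC replicate 4, and neutrophil markers were called in 0 of 7 cases. Among the erythroid markers, Hba-a1, an alpha globin, stood at a log2 difference of -1.77 ± 0.58 (-1.22 and not called with the deposited values), and 1, Tfrc, was higher. Pancreatic acinar markers, 5 of 10 of which passed the filter, split, with 2 called higher and 3 lower. Cela1 and Cela3b were higher (5.11 ± 0.29 and at least 38.7-fold), and Amy2a5 and Ctrb1 were among the 3 called lower (-2.46 ± 0.17 and -2.05 ± 0.21).

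**Figure D4:**
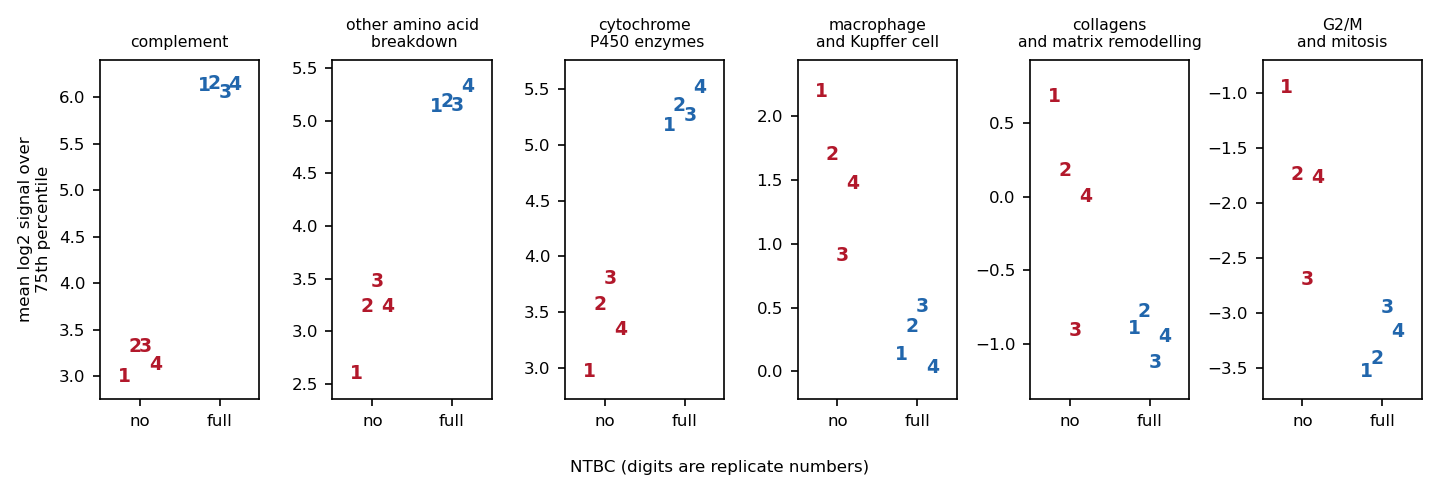
Mean level of 6 gene lists (log2 of signal over the 75th percentile of the array, y axis) on each array, no NTBC left of full NTBC, with the digit giving the replicate number. Without NTBC, replicate 1 lies lowest for complement, amino acid breakdown and cytochrome P450 genes, and replicate 3 lies lowest for macrophage markers, collagens and G2/M genes.

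The reduced dose shared neither array nor scan run with the other doses, and no NTBC was compared with it in the same fit, in which 13049 features passed the test (64.3%), 5308 higher (26.1%) and 7741 lower (38.1%) without NTBC. The 2 comparisons share the 4 arrays without NTBC, so their values are given side by side. For a first set of genes, levels on the reduced dose lay near those without NTBC. Cbr3 had levels of 8.13, 7.60, 8.01 and 7.20 on the reduced dose and Mt2 had 8.15, 6.76, 7.35 and 7.80, with log2 differences between no and reduced NTBC of -0.02 ± 0.32 and 0.01 ± 0.29, beside 6.72 ± 0.32 and 3.88 ± 0.29 between no and full NTBC. For a second set, the reduced dose lay near the full dose. Hkdc1 had levels of -3.82, -3.38, -3.70 and -3.95 on the reduced dose and Pigr had 4.56, 4.84, 4.87 and 5.17. The log2 differences of both between no and reduced NTBC were 6.45 ± 0.61 and -5.98 ± 0.68, beside 6.23 ± 0.61 and -6.39 ± 0.68 between no and full NTBC. Krt20 was not well above background on any array of the reduced or the full dose, so these doses cannot be set against each other for it.

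Another set was graded. C8b had levels of 1.61, 2.48, 1.89 and 2.78 on the reduced dose, between those of the other doses, with a log2 difference of -4.25 ± 0.43 between no and reduced NTBC, beside -6.74 ± 0.43 between no and full NTBC. C6, of the same pore, had levels of 0.19, 0.20, 0.10 and -0.44 without NTBC, 0.54, 0.78, 0.29 and 1.17 on the reduced dose and 4.16, 3.82, 3.69 and 4.10 on full NTBC, so the reduced dose lay closer to no NTBC for it. By list, the median log2 difference of complement was -2.86 between no and full NTBC and -0.81 between reduced and full NTBC. The same medians were -2.38 and -0.69 for the urea cycle, 1.34 and 1.20 for NRF2 targets, and 0.95 and 0.02 for annexins and S100 proteins. A last set had its highest or lowest value on the reduced dose. Cyp2b9 had levels of -0.45, 0.74, 0.44 and 0.76 without NTBC, 3.97, 3.52, 5.53 and 4.84 on the reduced dose and 0.97, 0.72, 0.45 and 1.14 on full NTBC. Krt19 had 0.43, 0.95, -1.45 and 0.72 without NTBC, -3.43, -3.34, -3.52 and -3.22 on the reduced dose and -0.42, -0.59, -2.07 and -1.14 on full NTBC. The genes of this paragraph and of the plot by dose were picked to show each pattern after their values were seen.

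**Figure D5:**
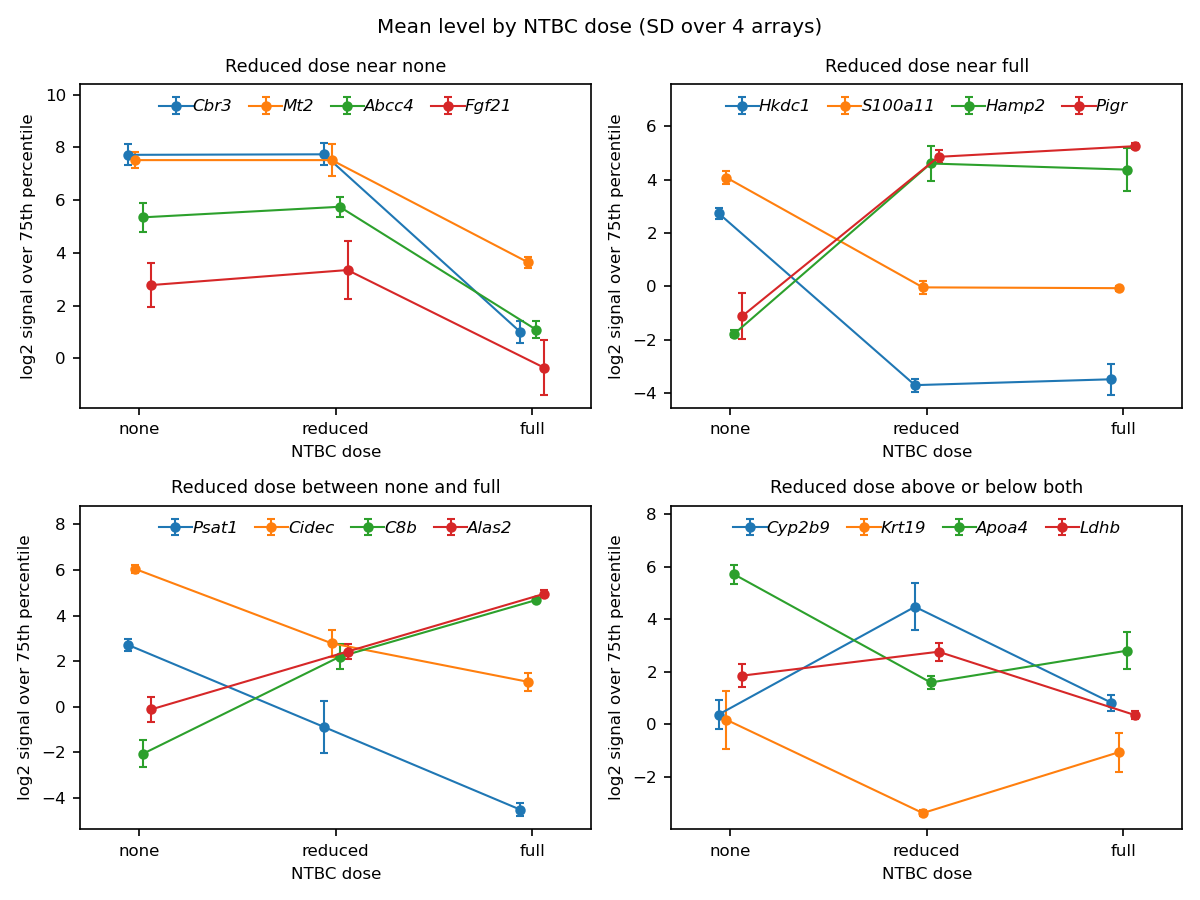
Levels (log2 of signal over the 75th percentile of the array, y axis) of 16 genes at no, reduced and full NTBC (x axis, each dose scanned in its own run), with points and lines for the mean and bars for the SD over 4 arrays. The 4 panels hold genes whose reduced-dose levels lay near those without NTBC (such as Cbr3 and Mt2), near full NTBC (such as Hkdc1 and Pigr), between the 2 (such as Cidec and C8b), and above or below both (such as Cyp2b9 and Krt19).

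Other genes among the largest changes are given here, and except for Sprr1a, of the keratin and claudin list, they belong to none of these groups. Among rises, Tmem54, a membrane protein, had levels of 2.63, 3.40, 2.78 and 2.87 without NTBC, against -4.67, -5.35, -5.58 and -6.72 on full NTBC. The groups did not overlap, and it was not well above background on any full NTBC array, so that it was at least 158-fold higher. Gipc2, Bmp8b and Acp7 were likewise not well above background on any full NTBC array and were at least 104-fold, 77-fold and 41.4-fold higher. Elovl7, a fatty acid elongase, and Sprr1a, a protein of the cornified envelope of skin, had log2 differences of 8.04 ± 0.61 and 7.42 ± 0.67, with Elovl7 well above background on 2 of 4 full NTBC arrays. Among falls, Lrtm1 and the receptor Adgrf1 had log2 differences of -7.29 ± 0.59 and -6.81 ± 0.41, and without NTBC they were well above background on 3 and 1 of 4 arrays. For other genes among the largest changes, the probes of the gene gave different answers. Syt13, a synaptotagmin, had a log2 difference of 9.19 ± 0.65 by its brightest probe over all arrays and was at least 153-fold higher, but its other probe, the one well above background on all 28 arrays, gave -0.02. Nlrp12, a sensor of innate immunity, had -8.74 ± 0.65 by its brightest probe, at least 216-fold lower, but -4.18 as the mean of its probes.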

How the data were processed

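Total liver RNA was labelled with Cy3 and hybridised to single-colour Agilent arrays, per the labels' protocols. The deposited intensity files hold the processed signal, the median spot and background signals, and flags for outliers and for probes well above background (Feature Extraction 10.5 per the submitters' processing notes, 10.7.3.1 per the file headers). The deposited log2 table of the series has nearly equal quantiles on every array, and no source used here says how it was made; it served as an alternative.

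From these, levels were computed as the log2 of the processed signal minus the log2 of the array's 75th percentile, with outlier spots left out. Of 41174 probes, 27506 were kept because some group of the 7 had all 4 of its arrays well above background. The brightest probe stood for each gene, giving 20300 features. Of these, 14571 had a gene symbol, looked up in RefSeq from the identifiers on the array. A mean per group was fitted over all 28 arrays with limma 3.58.1 in R 4.3.3 (21 residual degrees of freedom), and a feature was called at a Benjamini-Hochberg adjusted p under 0.05 over all features. The ± beside a log2 difference is its standard error (n = 4 each), with the spread pooled over all 7 groups, the other genotypes included. "At least" folds set the bright group's mean against the lowest signal well above background, or the probe's own if higher. Normexp (offset 50) used the median spot signal. On simulated data at this size, 65 of 100 genes changed by 1 on the log2 scale and 93 of 100 changed by 2 were called, with 2 of 20100 unchanged ones. A far larger share of features passed in the data (70.9%) than was changed in the simulation, so these rates need not hold there. The number of arrays limits the precision.

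The 51 gene lists and 14 marker lists, the naming rule and the comparison were chosen with earlier results of these data known; 1371 of 1405 list entries are on the array, and 48 of those were not tested because no probe passed the filter. Genes were named if they were Fah, Hpd, Trp53 or Cdkn1a, among the 15 largest rises or falls that kept their call with normexp and the deposited values, the first 6 of a list, the 6 largest called rises or falls of a list, or cell type markers. Hk3, Abcb4, the Y-linked genes and Xist fall outside this rule. Promoters came from a RefSeq table on GRCm38.p6 with 32851 promoters of 27025 genes. Alternatives changed the background correction, normalisation, filter, probe choice, variance model, blocks, minimum change and each array in turn. Same-numbered arrays did not deviate together (correlations of -0.0455 to 0.051), so the numbers do not pair samples. Results on the other genotypes were not analysed here, although their arrays entered the probe filter and the shared fit. A few genes of the lists are not reported here.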

Additional observations from a re-analysis of the deposited data

Results flagged for a closer look

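Among 450 groups of 4 levels of named genes, 22 held an array that lay apart from the other 3 by a gap above Dixon's critical value for 4 samples. Chance gives about 1 in 20 such groups, so the number is close to what chance gives. Without NTBC, replicate 1 was the array apart, and the lowest, for Elovl3 (-6.82, others -4.48 to -4.04), Fah (-2.72), Fbp1 (5.57), Klkb1 (-1.99, others -0.37 to -0.10) and Cxcl12 (3.63, others 4.33 to 4.40), and the highest for Igfbp1 (7.66). Replicate 3 was the lowest for the rising genes Grb10 (0.63, others 1.67 to 1.85), Lgals3 (3.70, others 4.70 to 4.73), Peg3 (-0.96) and Sprr1a (4.25), and the highest for Ghr (2.67), Gldc (4.81) and Oat (1.23, others 0.73 to 0.77). Replicate 2 stood apart for C9 (0.50, others -0.34 to -0.25) and Dnajb9 (3.33), and replicate 4 for C6 (-0.44). On full NTBC, replicate 3 was the lowest for Bcl2l1 (0.50), Cldn3 (4.13) and Hkdc1 (-4.36, others -3.29 to -3.07) and the highest for Ccl2 (-1.54, others -2.33 to -2.21), replicate 2 the highest for Peg3 (-3.67) and replicate 4 the highest for Tk1 (3.09). None of these arrays was left out of the values above.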

How the results depend on the processing

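Between no and full NTBC, leaving out each array in turn gave 5565 to 5811 features called higher, 8019 to 8262 called lower and 40.7% to 41.5% of calls higher. With normexp, 3243 features were called higher, 30.9% of the calls. With no filter on dim probes, 16446 were called lower and 27% of the calls were higher. With a minimum change of 2-fold, 3244 were called higher and 4542 lower. Between no and reduced NTBC, normexp gave 2818 higher and 3916 lower, no filter gave 15209 lower with 26.3% of calls higher, and a minimum change of 2-fold gave 2392 higher and 3521 lower. The direction of a named called gene turned for Acta2 (-0.46), Timp1 (0.86) and Trp53 (0.10) with the mean of the probes, for Syt13 (-0.02) with the filter on all 28 arrays, and, with quantile normalisation and the deposited values, for Hamp (0.28 and 0.24) and Ldha (0.05 and 0.02). The probes of the first 4 genes disagree, and the cause for Hamp and Ldha was not tested. With the replicate number as a block, 14470 features were called (5967 higher and 8503 lower) in place of 14387, and of the called named genes Krt18 alone lost its call (adjusted p = 0.06). Slide as a random block gave 14164 calls and the 8 arrays alone 14516. Values from the 2 arrays without NTBC of 1 slide were added after seeing the data, and 11 of 206 called named genes lost their call with the second slide and 4 with the first. Dose and scan run cannot be told apart under any of these settings, and dim genes, whose signal is close to background, carry the least certain folds.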
